A study of Homo sapiens with 15 samples.

Results

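The NF-kappaB system was described in HGrC1 cells through 10 genes chosen by symbol, 5 subunit genes (NFKB1, NFKB2, REL, RELA and RELB) and 5 inhibitor or feedback genes (NFKBIA, NFKBIB, NFKBIE, NFKBIZ and TNFAIP3). All 10 were found among the 37787 genes of the count table, and all 10 were among the 13868 genes that passed the filter on low counts and were tested. NF-kappaB is a family of dimeric transcription factors that rest in the cytoplasm bound to IkB proteins until receptors for cytokines or microbial products activate the IkB kinases, after which the IkB is degraded and the dimer enters the nucleus. Among the genes that the dimers switch on are those of their own inhibitors, IkB alpha (NFKBIA) and the ubiquitin-editing enzyme A20 (TNFAIP3), so that the level of these RNAs is often read together with that of cytokine genes. In the ovary, NF-kappaB is known for its part in ovulation, follicle survival and inflammation.

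HGrC1 is an immortalized line of human granulosa cells that are not luteinized and whose own FOXL2 alleles are normal. Cells were transiently transfected for 4 h, cultured for 24 h without serum and profiled by RNA-seq in 5 conditions. Each had 3 replicates, named by the letters A to C. The condition Vectors received empty plasmids, FOXL2WT received SMAD3 with wild-type FOXL2, FOXL2C134W received SMAD3 with the FOXL2 mutant of adult granulosa cell tumors, and FOXL2WT + FOXO1 and FOXL2C134W + FOXO1 also received FOXO1-3A, a constitutively active form of FOXO1 (FOXO1 hereafter). SMAD3 was thus absent from the plasmids of Vectors only, and no condition carried FOXL2 or FOXO1 without SMAD3. Levels are given in CPM (counts per 1000000, from the estimated counts after TMM scaling between libraries) with SD over n = 3, and differences as log2 fold changes ± standard error with the Benjamini-Hochberg adjusted p of edgeR's quasi-likelihood test over all 13868 genes. A difference was called at an adjusted p under 0.05. The methods describe 15 samples lysed after transfection, from cells of a single passage number, and whether replicates came from independent transfection experiments is not given in the sources used here. The p-values therefore measure the spread between these samples, which may be largely technical. In RNA of whole cultures, fewer expressing cells and less RNA per cell cannot be told apart.

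Library totals ran from 14962245 to 25339094 estimated counts, and the 10 genes held between 164 (REL) and 3029 (NFKBIA) counts per library. FOXL2 RNA was at 8.73 ± 0.704 CPM in Vectors, 561 ± 5.89 in FOXL2WT, 147 ± 27.0 in FOXL2C134W, 384 ± 14.97 in FOXL2WT + FOXO1 and 152 ± 20.1 in FOXL2C134W + FOXO1, and SMAD3 and FOXO1 RNA were also raised where the labels place their plasmids. These RNA amounts were not matched between conditions. For protein, the paper reports balanced levels of both FOXL2 forms and FOXO1, from an immunoblot of samples cultured in parallel. Of 15 granulosa markers, 11 were tested, among them GATA4, NR5A1 and FST, whereas FSHR was at 0 in every library and CYP19A1 did not exceed 4 counts. Of 10 leukocyte markers 3 were tested and of 5 endothelial markers 4, with PTPRC at 0 to 5 counts per library.

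The sequences in front of the 3 genes that carried most of the differences are shown first, because each holds a match to the NF-kappaB consensus. They are RefSeq promoter sequences (GRCh38.p14), read 5′ to 3′ on the strand of the gene, with the matches in capitals. Those of NFKBIA and NFKBIZ end at the first base before the RefSeq start. That of TNFAIP3 was cut before the gene start of GENCODE, 137867214, and so ends at its last match. The RefSeq start of TNFAIP3 lies further downstream, at 137867259. The NFKBIA stretch is chr14:35404750-35404999 on the minus strand, the NFKBIZ stretch chr3:101827740-101827989 on the plus strand and the TNFAIP3 stretch chr6:137867009-137867213 on the plus strand.
NFKBIA: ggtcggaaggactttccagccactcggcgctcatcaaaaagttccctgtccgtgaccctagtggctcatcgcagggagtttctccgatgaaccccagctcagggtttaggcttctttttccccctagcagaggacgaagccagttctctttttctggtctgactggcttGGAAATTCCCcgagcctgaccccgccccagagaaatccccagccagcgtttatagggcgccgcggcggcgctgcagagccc
NFKBIZ: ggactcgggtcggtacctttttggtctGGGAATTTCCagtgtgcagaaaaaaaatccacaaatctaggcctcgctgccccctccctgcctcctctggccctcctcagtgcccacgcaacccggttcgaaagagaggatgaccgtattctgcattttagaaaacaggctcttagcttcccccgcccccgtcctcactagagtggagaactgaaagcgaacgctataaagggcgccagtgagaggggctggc
TNFAIP3: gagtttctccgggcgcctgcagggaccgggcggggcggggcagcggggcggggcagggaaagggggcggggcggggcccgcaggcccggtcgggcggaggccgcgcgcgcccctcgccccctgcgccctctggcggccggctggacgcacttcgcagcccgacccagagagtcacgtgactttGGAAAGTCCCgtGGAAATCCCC

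NFKBIA held 1 match, 81 to 72 bases before its start. NFKBIZ held 1 match at 223 to 214 bases before its upstream start, and its second, downstream start on chromosome 3 had another at 239 to 230 bases. TNFAIP3 held 2 matches, the nearer one ending 46 bases before the RefSeq start. Promoter entries were found for 8 of the 10 genes, with 14 starts in all, and a match lay within 250 bases before at least 1 start in 7 of the 8, RELA being the exception. Counted by start, 9 of the 14 held a match. Both strands were searched, and overlapping matches on opposite strands (NFKB2, NFKBIB, REL) were counted separately. The consensus occurred in 3498 of 35116 windows of the same length over all genes (9.96%). The forkhead core TGTTTAC, searched in the same way, was in none of the windows of these genes and in 2.98% of all windows. With so low a share, its absence from 14 windows gives little to read, and it does not bear on FOXL2 binding elsewhere. The paper reports differential FOXL2 binding at the NFKBIA promoter region, stronger for the wild type. This comes from another study's published ChIP-seq data of HGrC1 cells treated with TGFβ, a treatment not given to the cells here. RELB and NFKBIE were not searched.

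Per transcript length, NFKBIA was the most abundant of the 10 genes in every condition. In Vectors its level, summed over transcripts, was 111 ± 2.03 TPM (transcripts per 1000000), against 57.3 ± 13.4 for RELA, which encodes the transactivating subunit p65, and 52.2 ± 2.05 for TNFAIP3. The other genes lay between 16.7 ± 0.889 TPM for RELB and 31.2 ± 3.36 for NFKBIE, apart from REL, the lowest, at 2.54 ± 0.337 TPM. RELA and TNFAIP3 overlapped in their libraries (48.8 to 72.7 TPM for RELA, 50.8 to 54.6 for TNFAIP3), as did most neighbours from NFKBIE down to RELB, so their order was not resolved. NFKBIA, RELA, TNFAIP3 and REL kept their ranks of 1, 2, 3 and 10 in Vectors when counts were divided by the length of the longest transcript instead, and the 6 others exchanged ranks.

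NFKBIA encodes the classical inhibitor IkB alpha, which retains RELA dimers in the cytoplasm (ENSG00000100906, chromosome 14, 35401079 to 35404749, minus strand, GRCh38). Its RNA was lower than in Vectors in all 4 conditions with SMAD3. The libraries of Vectors held 117, 121 and 121 CPM, those of FOXL2WT 103, 105 and 104, and those of FOXL2C134W 80.0, 78.8 and 81.2. The libraries of FOXL2WT + FOXO1 held 90.2, 90.2 and 91.9 CPM and those of FOXL2C134W + FOXO1 87.9, 85.1 and 85.2. No library of one condition overlapped another condition, which gave the order Vectors, FOXL2WT, FOXL2WT + FOXO1, FOXL2C134W + FOXO1, FOXL2C134W from high to low. Against Vectors, the log2 fold change was -0.20 ± 0.04 in FOXL2WT (edgeR adjusted p = 0.0027), -0.58 ± 0.04 in FOXL2C134W (adjusted p = 1.3e-08), -0.40 ± 0.04 in FOXL2WT + FOXO1 (adjusted p = 4.8e-06) and -0.47 ± 0.04 in FOXL2C134W + FOXO1 (adjusted p = 1.2e-07). The largest of these, in FOXL2C134W, was a change of -32.98%. A single transcript, NFKBIA-201, carried 80.2% to 98.3% of the gene's TPM in each library.

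NFKBIZ encodes the nuclear protein IkB zeta, which acts with p50 at a subset of NF-kappaB targets such as IL6 (ENSG00000144802, chromosome 3, 101827991 to 101861022, plus strand). It showed the largest fall against Vectors of the 10 genes in each of the 4 comparisons. The libraries of Vectors held 66.9, 57.2 and 63.7 CPM. Those of FOXL2WT held 37.5, 38.3 and 42.7 CPM, those of FOXL2C134W 32.2, 35.4 and 42.4, those of FOXL2WT + FOXO1 41.6, 40.6 and 40.7, and those of FOXL2C134W + FOXO1 33.5, 31.5 and 35.4. Every library of Vectors lay above all 12 others, and the 4 other conditions overlapped one another in part. The log2 fold changes against Vectors were -0.66 ± 0.08 in FOXL2WT (edgeR adjusted p = 8.6e-05), -0.78 ± 0.08 in FOXL2C134W (adjusted p = 6.7e-06), -0.61 ± 0.08 in FOXL2WT + FOXO1 (adjusted p = 0.00023) and -0.90 ± 0.08 in FOXL2C134W + FOXO1 (adjusted p = 1.4e-06).

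The 2 main NFKBIZ transcripts begin at different starts. NFKBIZ-203 begins at the upstream start, whose promoter is printed above, and NFKBIZ-202 at the downstream start, 101849514. The estimate for NFKBIZ-203 was 9.91 to 16.3 TPM in the libraries of Vectors and 0 to 9.72 TPM in the other 12 libraries. NFKBIZ-202 was at 3.58 to 9.59 TPM in Vectors, within the range of 3.36 to 11.6 TPM of the others. The upstream transcript was thus higher in Vectors than in any other library, and the downstream one overlapped, although the split between them varied widely inside conditions (a share of 12.2%, 0% and 32.6% for NFKBIZ-203 in the FOXL2WT libraries). These are salmon's estimates for transcripts that share most of their sequence, and they were not tested.

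TNFAIP3 encodes A20, which removes ubiquitin chains from signaling proteins upstream of the IkB kinases and so ends the response (ENSG00000118503, chromosome 6, 137867214 to 137883314, plus strand). The libraries held 94.97, 88.8 and 92.3 CPM in Vectors, 77.8, 79.2 and 74.7 in FOXL2WT, and 57.7, 58.0 and 61.8 in FOXL2C134W. With FOXO1 they held 62.0, 68.0 and 71.3 CPM in FOXL2WT + FOXO1 and 53.7, 53.9 and 56.8 in FOXL2C134W + FOXO1. As for NFKBIA, no condition overlapped another, but here FOXL2C134W + FOXO1 was the lowest. The log2 fold changes against Vectors were -0.26 ± 0.05 in FOXL2WT (edgeR adjusted p = 0.0054), -0.64 ± 0.05 in FOXL2C134W (adjusted p = 3.1e-07), -0.45 ± 0.05 in FOXL2WT + FOXO1 (adjusted p = 6.5e-05) and -0.75 ± 0.05 in FOXL2C134W + FOXO1 (adjusted p = 4.4e-08). The call in FOXL2WT was lost with DESeq2 and transcript length offsets (log2 fold change -0.21, adjusted p = 0.46). The full-length TNFAIP3-201 carried 35.9% to 54.0% of the gene's TPM, and short annotated transcripts of 421 and 698 bases most of the rest.

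**Figure D1:**
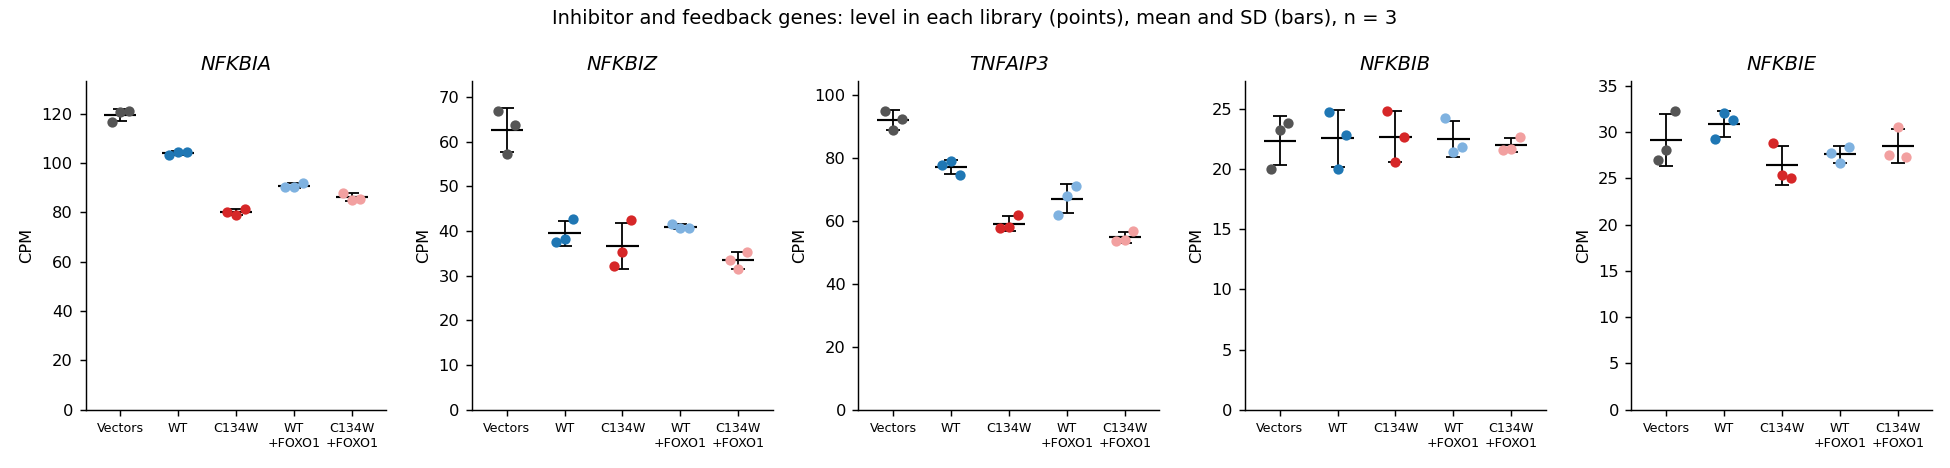
Level of the 5 inhibitor and feedback genes in CPM (vertical axes, starting at 0) in each library by condition (horizontal axes). Points are libraries, horizontal bars means and error bars SD, n = 3. NFKBIA, NFKBIZ and TNFAIP3 are highest in Vectors, at 117 to 121, 57.2 to 66.9 and 88.8 to 94.97 CPM, whereas the conditions overlap for NFKBIB.

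The other classical inhibitors did not share this pattern. NFKBIB encodes IkB beta (ENSG00000104825, chromosome 19, 38899700 to 38908893, plus strand) and lay between 20.002 and 24.8 CPM over all 15 libraries, with every condition overlapping every other. Its log2 fold change against Vectors was 0.02 in both FOXL2WT (95% interval -0.17 to 0.20) and FOXL2C134W (95% interval -0.16 to 0.21), which excludes falls of the size seen for NFKBIZ and TNFAIP3 in FOXL2C134W. NFKBIE encodes IkB epsilon (ENSG00000146232, chromosome 6, 44258166 to 44265788, minus strand), with 27.0, 28.1 and 32.3 CPM in Vectors, 29.3, 32.1 and 31.3 in FOXL2WT and 28.9, 25.4 and 25.1 in FOXL2C134W. The 3 FOXL2C134W libraries of NFKBIE were below those of FOXL2WT and overlapped those of Vectors. The log2 difference between the FOXL2 forms was -0.22 ± 0.08 and was not called (edgeR adjusted p = 0.069). Over the alternatives it ran from -0.29 (adjusted p = 0.022) without FOXL2C134W replicate A, the only one that passed, to -0.06 (adjusted p = 0.89) with DESeq2 and transcript length offsets.

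Among the subunits, RELB differed between the FOXL2 forms. RELB encodes the partner of p52 in the non-canonical branch of the pathway (ENSG00000104856, chromosome 19, 45001461 to 45038192, plus strand). The libraries held 26.6, 27.0 and 28.5 CPM in Vectors, 29.9, 33.4 and 29.5 in FOXL2WT, 24.2, 24.4 and 20.6 in FOXL2C134W, 31.0, 24.9 and 26.4 in FOXL2WT + FOXO1 and 21.1, 25.3 and 22.4 in FOXL2C134W + FOXO1. Vectors lay between FOXL2WT above and FOXL2C134W below, without overlap. The conditions with FOXO1 overlapped each other. FOXL2WT + FOXO1 also overlapped Vectors, while FOXL2C134W + FOXO1 lay below Vectors without overlap. The difference of FOXL2C134W from FOXL2WT was -0.42 ± 0.09 (edgeR adjusted p = 0.0048), a fall by 25.1%. Neither form alone passed against Vectors, at 0.17 ± 0.09 in FOXL2WT (adjusted p = 0.28) and -0.25 ± 0.09 in FOXL2C134W (adjusted p = 0.067). The latter ran from -0.28 to -0.17 over the alternatives and passed in 2 of the 22, without a filter on low counts (adjusted p = 0.024) and without FOXL2WT + FOXO1 replicate A (adjusted p = 0.044), whereas its adjusted p was 0.26 without FOXL2C134W replicate C. In FOXL2C134W + FOXO1 the value was -0.25 (adjusted p = 0.077), and it passed in 4 of the 22 (adjusted p from 0.028 to 0.35 over all of them).

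NFKB2 encodes p100, the precursor of p52 (ENSG00000077150, chromosome 10, 102394110 to 102402524, plus strand). Its libraries held 55.0, 52.7 and 52.3 CPM in Vectors and 44.1, 47.5 and 47.1 in FOXL2C134W + FOXO1, without overlap. This fall of -0.21 ± 0.05 was called (edgeR adjusted p = 0.021). The call rested in part on single libraries. The edgeR adjusted p was 0.099 without Vectors replicate A, 0.05 without Vectors replicate B and 0.098 without FOXL2C134W + FOXO1 replicate A. The log2 fold changes in these fits were -0.18, -0.21 and -0.17. The call was also lost with DESeq2 and transcript length offsets, and it held in 18 of the 22 alternatives. NFKB2 was at 47.3 to 51.1 CPM in FOXL2WT, 48.0 to 51.9 in FOXL2C134W and 47.5 to 52.7 in FOXL2WT + FOXO1, and none of these was called against Vectors.

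NFKB1, RELA and REL were not called in any of the 9 comparisons. NFKB1 encodes p105, the precursor of p50 (ENSG00000109320, chromosome 4, 102501330 to 102617302, plus strand), and lay between 55.7 and 64.6 CPM over all libraries. RELA (ENSG00000173039, chromosome 11, 65653599 to 65663090, minus strand) lay between 82.7 and 98.7 CPM. For both, the 95% intervals of the log2 differences from Vectors stayed within -0.17 and 0.19. REL, the gene of c-Rel (ENSG00000162924, chromosome 2, 60881491 to 60931612, plus strand), was the least abundant, with 11.03, 19.8 and 17.1 CPM in the libraries of FOXL2WT + FOXO1. Its interval against Vectors that reached lowest ran from -0.50 to 0.09, in FOXL2C134W + FOXO1, so that changes of the size found for NFKBIA were not excluded for REL there.

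**Figure D2:**
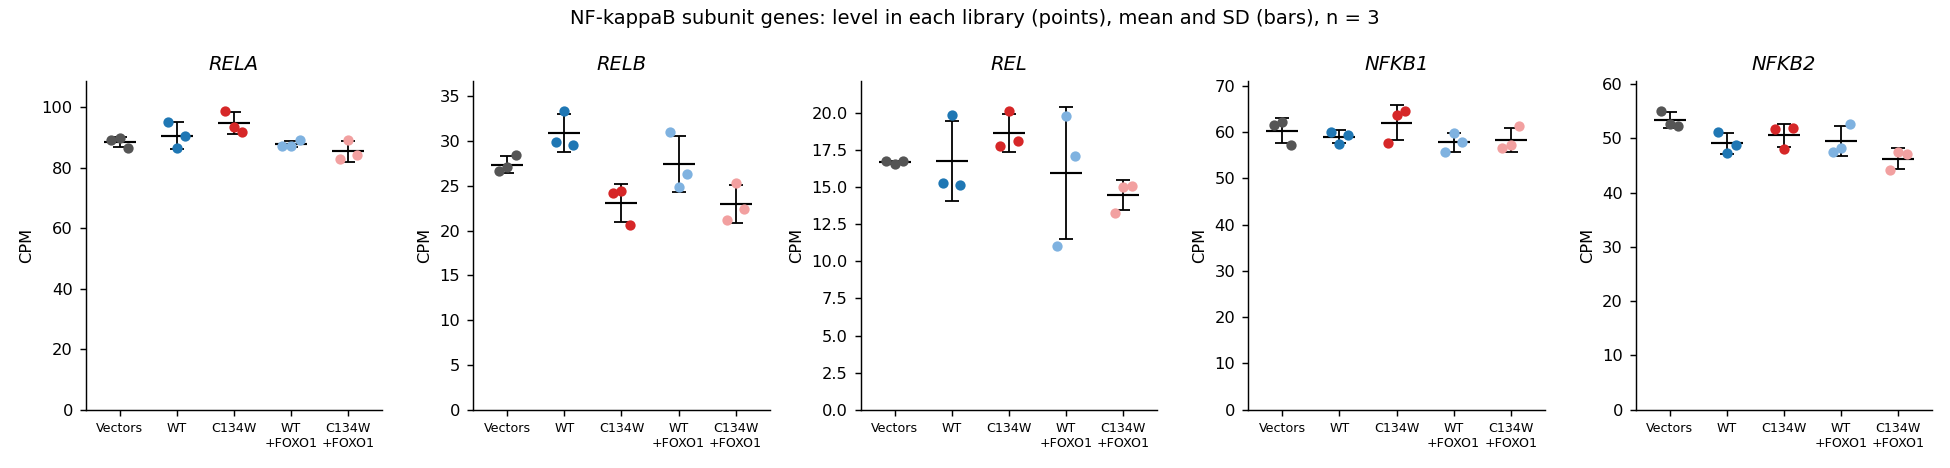
Level of the 5 subunit genes in CPM (vertical axes, starting at 0) in each library by condition (horizontal axes). Points are libraries, horizontal bars means and error bars SD, n = 3. RELB is at 29.5 to 33.4 CPM in FOXL2WT and 20.6 to 24.4 in FOXL2C134W, while NFKB1 and RELA stay within 55.7 to 64.6 and 82.7 to 98.7 CPM.

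Counted by comparison, FOXL2WT against Vectors gave 3 called genes of 10, all lower (NFKBIA, NFKBIZ and TNFAIP3), where 6.07% of all tested genes were called and 3.61% were called lower. FOXL2C134W against Vectors gave the same 3 genes, also lower, where 14.7% of all genes were called and 7.24% lower. FOXL2WT + FOXO1 against Vectors gave these 3 again, where 3.78% of all genes were called and 2.37% lower, and FOXL2C134W + FOXO1 gave them together with NFKB2, where 9.33% were called and 5.16% lower. The median log2 fold change over the 10 genes was -0.02, -0.11, -0.07 and -0.20 in these 4 comparisons, while that over all tested genes was 0.00 in each. The 10 genes were chosen with earlier results of these data known. The 4 comparisons share the libraries of Vectors, so they are not independent of one another. The 7 genes other than these 3 were split in sign in FOXL2WT and FOXL2C134W, from -0.12 to 0.17 and from -0.25 to 0.16. In FOXL2WT + FOXO1 their values ran from -0.11 to 0.00, with 6 of the 7 below 0, and in FOXL2C134W + FOXO1 from -0.25 to -0.02, with all 7 below 0.

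**Figure D3:**
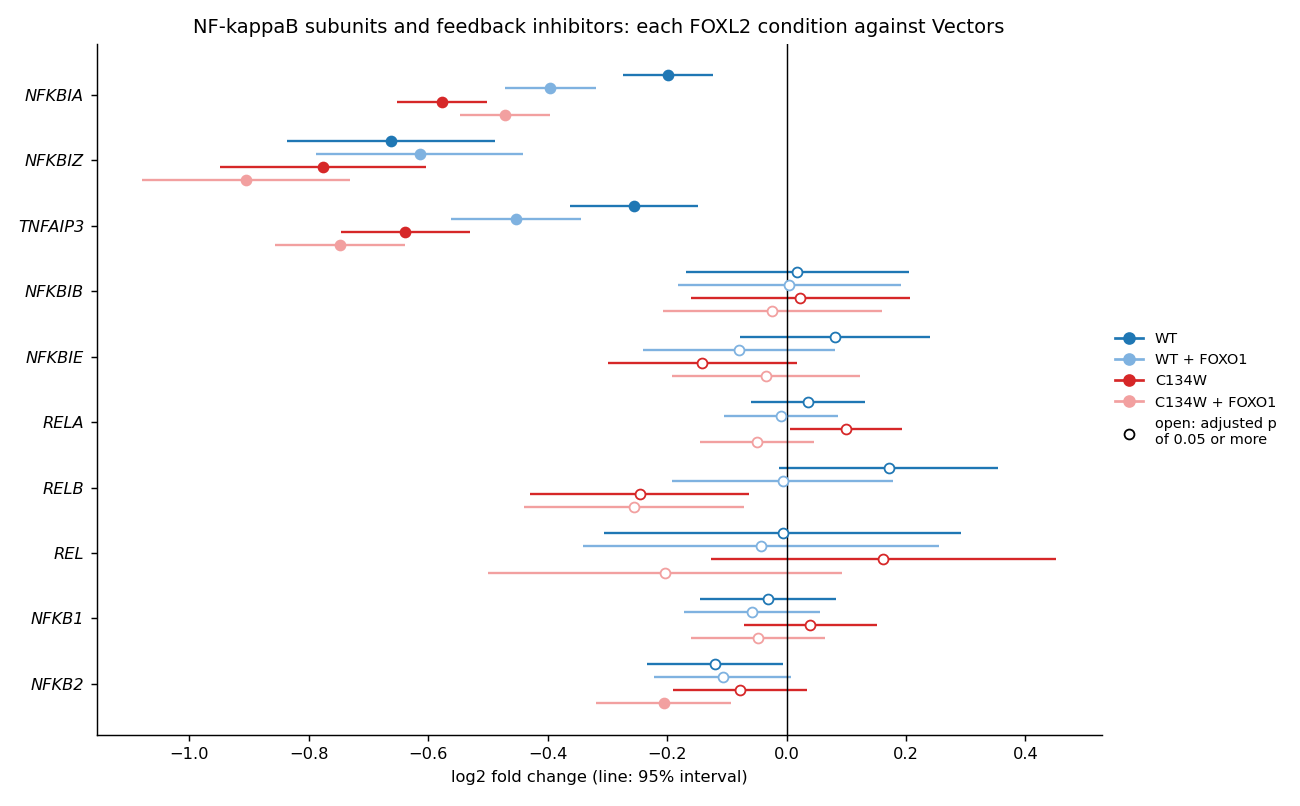
Log2 fold change against Vectors (horizontal axis) of the 10 genes (rows) in 4 conditions (colors), with 95% intervals as lines and filled points where the edgeR adjusted p was under 0.05. NFKBIA, NFKBIZ and TNFAIP3 are filled and left of 0 in every condition, and NFKB2 is the only other filled point, at -0.21 in FOXL2C134W + FOXO1.

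The direct comparison of FOXL2C134W with FOXL2WT, the one that asks what the tumor mutation changes, gave 3 called genes of 10, all lower, where 11.2% of all tested genes were called and 4.12% lower. TNFAIP3 differed by -0.38 ± 0.05 (edgeR adjusted p = 0.00016), NFKBIA by -0.38 ± 0.04 (adjusted p = 6.4e-06) and RELB by the -0.42 given above. NFKBIZ, which had fallen most against Vectors, differed by -0.11 ± 0.09 between the forms (95% interval -0.29 to 0.07, adjusted p = 0.44). NFKB1, NFKB2, REL, RELA and NFKBIB were between 0.01 and 0.17 and were not called. FOXL2 RNA was also lower in FOXL2C134W than in FOXL2WT, by -1.93 ± 0.10, as was SMAD3 RNA, by -1.72 ± 0.05, and the part of these amounts in the differences was not tested.

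With FOXO1 present, FOXL2C134W + FOXO1 against FOXL2WT + FOXO1 gave 1 called gene, TNFAIP3, at -0.29 ± 0.05 (edgeR adjusted p = 0.027), where 0.144% of all tested genes were called. That call was lost when any of 6 libraries was left out (FOXL2WT replicate A, FOXL2WT + FOXO1 replicates B and C, and each FOXL2C134W + FOXO1 replicate), with adjusted p from 0.051 to 0.16 and log2 differences from -0.32 to -0.25. NFKBIA differed by -0.08 ± 0.04 (95% interval -0.15 to 0.00, adjusted p = 0.37), NFKBIZ by -0.29 ± 0.09 (adjusted p = 0.2) and RELB by -0.25 ± 0.09 (adjusted p = 0.25). The RNA of the transfected genes differed here too, with FOXL2 at -1.33, SMAD3 at -1.31 and FOXO1 at -1.44.

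Adding FOXO1 to FOXL2WT gave 0 called genes of 10 by edgeR (2 at an unadjusted p under 0.05, and 1 called by DESeq2), where 0.0505% of all tested genes were called. Adding it to FOXL2C134W also gave 0 (4 at an unadjusted p under 0.05, and 0 called by DESeq2), where 0.714% of all genes were called. The 4 were NFKBIA and the subunits REL (-0.37 ± 0.14, edgeR adjusted p = 0.29), RELA (-0.15 ± 0.04, adjusted p = 0.15) and NFKB2 (-0.13 ± 0.05, adjusted p = 0.37). NFKBIA nevertheless moved in opposite directions in the 2 settings. With FOXL2WT it went from 104 ± 0.735 to 90.8 ± 0.991 CPM, a log2 difference of -0.20 ± 0.04 (edgeR adjusted p = 0.06), and with FOXL2C134W from 80.0 ± 1.21 to 86.1 ± 1.57 CPM, a difference of 0.11 ± 0.04 (adjusted p = 0.23). Neither passed alone in the edgeR fit reported here. The first passed with DESeq2 (adjusted p = 0.0042), with DESeq2 and transcript length offsets (0.00022), without a filter on low counts (0.029) and with at least 10 counts in every library (0.049), while its adjusted p reached 0.29 over the 22 alternatives. The difference between the 2 effects, tested as an interaction, was 0.30 ± 0.05 (adjusted p = 0.0083). NFKBIA was the only one of the 10 genes called in that test, in which 1.38% of all tested genes were called, and it stayed called in all 22 alternatives (adjusted p from 0.00023 to 0.038).

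TNFAIP3 did not follow NFKBIA in this respect. FOXO1 was accompanied by lower TNFAIP3 values with both FOXL2 forms, at -0.20 ± 0.05 with FOXL2WT (edgeR adjusted p = 0.23) and -0.11 ± 0.05 with FOXL2C134W (adjusted p = 0.45), and the interaction was 0.09 ± 0.07 (95% interval -0.07 to 0.25, adjusted p = 0.7). The interaction of NFKBIE was close in size to that of NFKBIA, at 0.27 ± 0.11, with a wider error (adjusted p = 0.3). In the libraries compared, the plasmid genes changed along with FOXO1, since SMAD3 RNA was lower with FOXO1 by -1.51 ± 0.05 in FOXL2WT and -1.11 ± 0.05 in FOXL2C134W, and FOXL2 RNA by -0.55 ± 0.09 in FOXL2WT against a value of 0.05 ± 0.10 in FOXL2C134W. FOXO1 RNA itself reached 117 ± 14.5 CPM with FOXL2WT and 43.2 ± 4.06 with FOXL2C134W. The part of these amounts in the interaction was not tested.

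**Figure D4:**
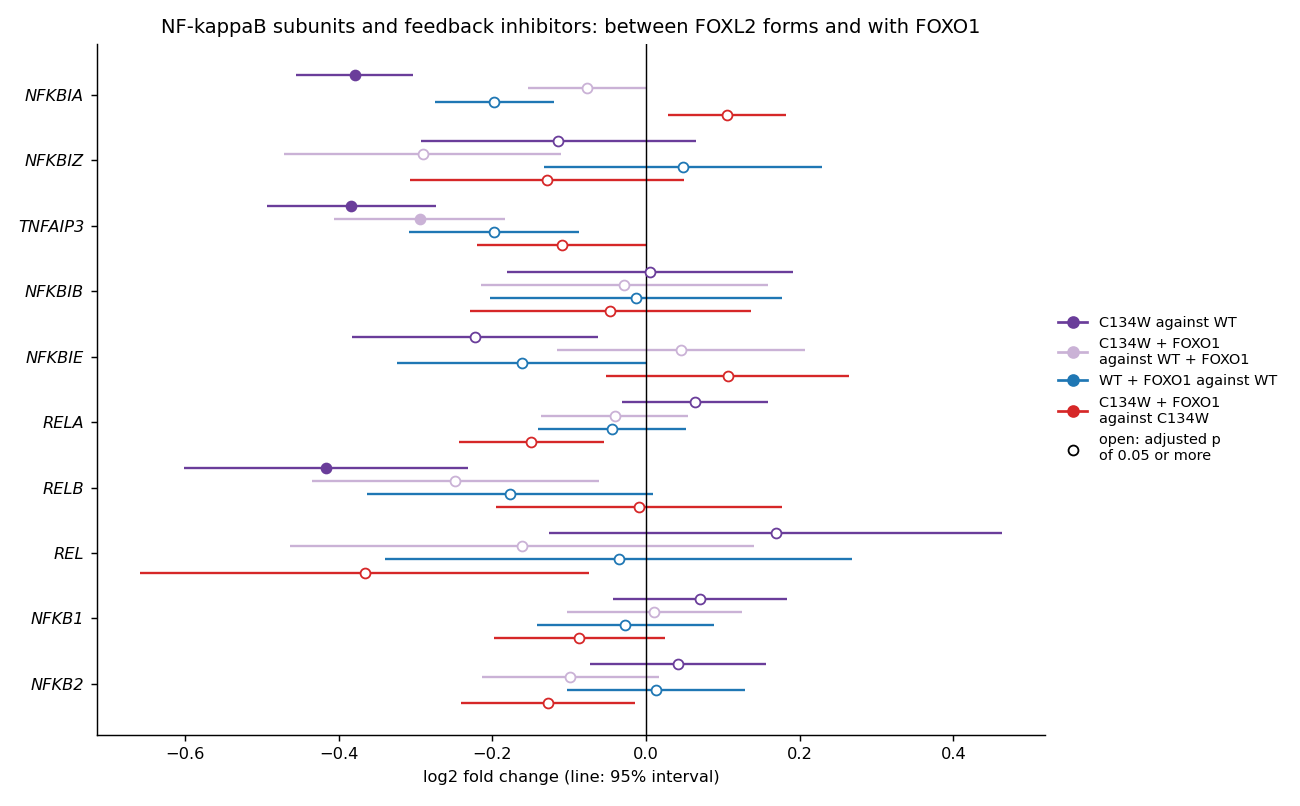
Log2 differences (horizontal axis) of the 10 genes (rows) between FOXL2 forms and with FOXO1 (colors), with 95% intervals as lines and filled points where the edgeR adjusted p was under 0.05. NFKBIA, TNFAIP3 and RELB are filled for FOXL2C134W against FOXL2WT, and the 2 FOXO1 effects on NFKBIA lie on opposite sides of 0, at -0.20 and 0.11.

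The rest of the pathway was read from 3 lists, which were chosen with earlier results of these data known. Of 32 genes for receptors, adaptors and kinases upstream of IkB, 31 were tested. Against Vectors, 2 were called in FOXL2WT, both lower, where 6.07% of all tested genes were called, namely IL1R1, the interleukin-1 receptor (-0.43 ± 0.08, edgeR adjusted p = 0.0043), and IRAK2, a kinase of the same receptor complex (-0.26 ± 0.06, adjusted p = 0.013). In FOXL2C134W 5 were called lower and 1 higher, where 14.7% of all genes were called, IRAK2 reaching -0.61 ± 0.06 and the 1 higher gene being IRAK1 (0.15 ± 0.04, adjusted p = 0.025). Against FOXL2WT, FOXL2C134W was lower in 3, IRAK2 (-0.36), the double-stranded RNA receptor TLR3 (-0.26) and the adaptor MYD88 (-0.19), where 11.2% of all genes were called. With both directions counted, these counts of 31 lie near the shares over all genes. Called lower were 3.61%, 7.24% and 4.12% of all genes, and the counts of 2, 5 and 3 lower lie above these shares by a few genes. The calls of IRAK2 in FOXL2WT, of IRAK1, and of TLR3 and MYD88 between the forms were each lost when any of 2 to 4 libraries was left out. Counts fell from 2 to 1 in FOXL2WT without Vectors replicate A, from 6 to 3 in FOXL2C134W without Vectors replicate B and from 3 to 1 between the forms without FOXL2WT replicate A. The genes of the IkB kinase complex itself, CHUK, IKBKB and IKBKG, were tested and were not called in these 3 comparisons. The list's median log2 fold change was 0.01, -0.02 and -0.04, beside 0.00, 0.00 and -0.01 over all tested genes.

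Of 21 genes listed as other negative regulators or nuclear IkB proteins, 20 were tested. In FOXL2WT 4 were called lower than in Vectors, BCL3, ZC3H12A, BIRC3 and TNIP1, where 3.61% of all tested genes were called lower. In FOXL2C134W 7 were lower, where 7.24% of all genes were, led by ZC3H12A, an RNase that degrades cytokine mRNAs (-0.59 ± 0.09, edgeR adjusted p = 0.00023), and BIRC3, a ubiquitin ligase of the TNF receptor complex (-0.43 ± 0.09, adjusted p = 0.0026). TNIP1, an adaptor for A20, fell by 0.23 and 0.26 on the log2 scale in the 2 forms, and 1 gene, the repressor NKRF, was higher in FOXL2C134W (0.27 ± 0.06, adjusted p = 0.0035). Between the forms, 2 were lower in FOXL2C134W, TRAFD1 (-0.24) and RNF11 (-0.18), where 11.2% of all genes were called and 4.12% lower. That count was 1 without FOXL2WT replicate B and 1 with DESeq2 and transcript length offsets. In FOXL2WT the calls of BIRC3 and ZC3H12A were each lost when any of 5 libraries was left out. The count there was 2 without Vectors replicate A and 1 with DESeq2 and transcript length offsets. The list's median was -0.03 and -0.06 against Vectors and -0.05 between the forms.

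The list of 38 target genes, of which 35 were tested, held the largest changes. It was chosen with earlier results of these data known, so its counts are no independent test of the pathway. In FOXL2WT 15 were called lower and 3 higher than in Vectors, in FOXL2C134W 22 lower and 2 higher, and in FOXL2C134W against FOXL2WT 12 lower and none higher. Over all tested genes 6.07%, 14.7% and 11.2% were called in these comparisons, and 3.61%, 7.24% and 4.12% lower. The last count was 4 without FOXL2C134W replicate B, and that in FOXL2WT, 18 in all, was 11 without Vectors replicate A. The list's median was -0.19, -0.42 and -0.18, beside 0.00, 0.00 and -0.01 over all tested genes. CXCL8, the neutrophil chemokine interleukin-8, went from 143 ± 6.92 CPM in Vectors to 97.5 ± 3.46 in FOXL2WT and 53.5 ± 3.25 in FOXL2C134W, a log2 fold change of -0.56 ± 0.07 and -1.42 ± 0.07 (edgeR adjusted p = 4.4e-05 and 1.4e-10). It was the only target called between the forms with FOXO1 (6 were called without a filter on low counts), where 0.144% of all genes were called, at 87.0 ± 7.99 CPM in FOXL2WT + FOXO1 and 49.2 ± 3.99 in FOXL2C134W + FOXO1. The chemokine CXCL3 fell to a similar extent in both forms (-1.004 ± 0.20 and -1.07 ± 0.19). The adhesion molecule VCAM1 also fell in both forms (-1.69 ± 0.48 and -1.503 ± 0.45) from a level of 0.821 ± 0.263 CPM, and these calls were lost when any of 11 and any of 4 libraries was left out. CD83, a surface protein of activated antigen-presenting cells, differed between the forms (-0.71 ± 0.16, adjusted p = 0.0067), and the growth factor gene CSF1 (-0.20, adjusted p = 0.049) and the pentraxin gene PTX3 (-0.16, adjusted p = 0.014) did so by less, the call of CSF1 being lost in 12 of the 15 fits without 1 library and that of PTX3 in 3. Higher in FOXL2WT were the transcription factors CEBPB (0.54 ± 0.11) and MYC (0.31 ± 0.05) and the stress gene GADD45B (0.39 ± 0.07), of which MYC and GADD45B were also higher in FOXL2C134W. The CEBPB call was lost without Vectors replicate A (edgeR adjusted p = 0.064). Both GADD45B calls were lost with DESeq2 and transcript length offsets (adjusted p = 0.093 and 0.19), the second also without Vectors replicate A. Both MYC calls held under every alternative.

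**Figure D5:**
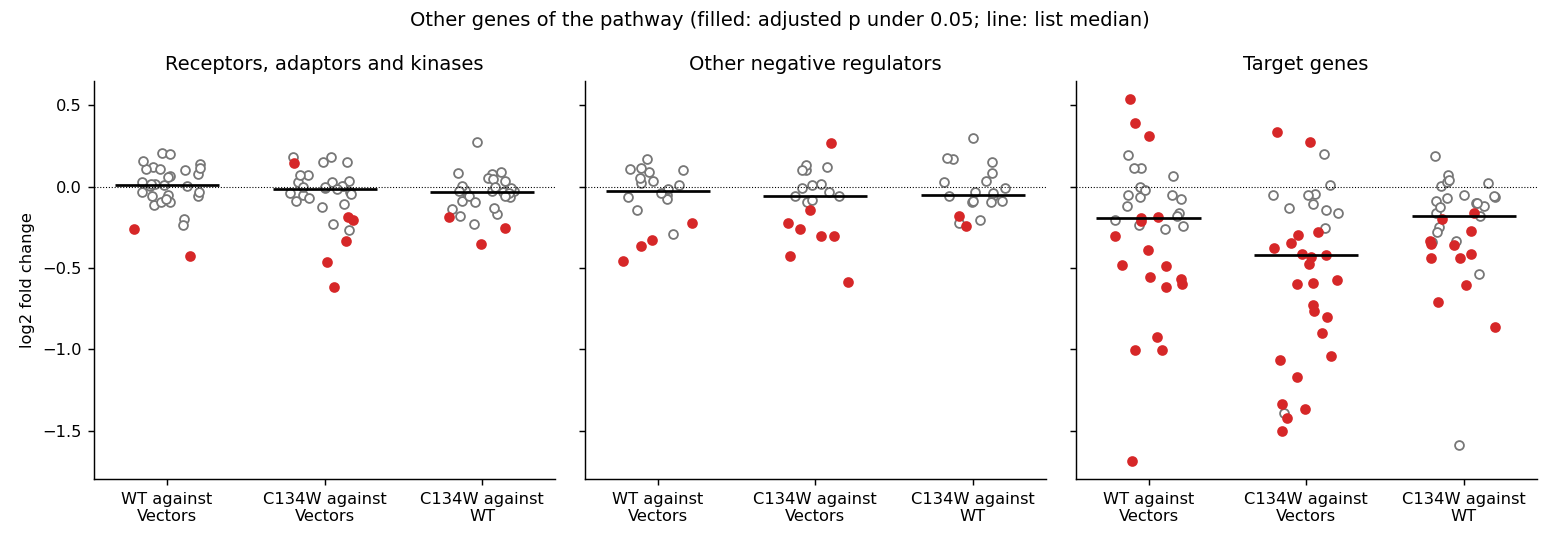
Log2 fold changes (vertical axis) of the tested genes of 3 pathway lists in 3 comparisons (horizontal axes). Each point is a gene, filled in red where the edgeR adjusted p was under 0.05, and the black line is the list's median. Target genes reach from -1.69 to 0.54 with medians of -0.19, -0.42 and -0.18, and the medians of the other lists lie between -0.06 and 0.01.

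With FOXO1 the lists gave similar counts against Vectors, 16 targets lower and 1 higher in FOXL2WT + FOXO1 and 22 lower and 2 higher in FOXL2C134W + FOXO1, where 3.78% and 9.33% of all tested genes were called. The first of these totals, 17, was 10 with DESeq2 and transcript length offsets. No gene of the 3 lists was called by edgeR for FOXO1 added to FOXL2WT or FOXL2C134W or for the interaction, where 16, 9 and 14 of the 86 tested genes had an unadjusted p under 0.05 and DESeq2 called 2, 0 and 2. Over all genes 0.0505%, 0.714% and 1.38% were called in these comparisons, so that a list of this size gives little to read from a count of 0. These conditions share the libraries of Vectors with those above.

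Ranked by the root mean square difference from NFKBIA in log2 level relative to Vectors over the 4 other conditions, the nearest of 13867 tested genes were RDH10 (0.043), HERC5 (0.047), IRAK2 (0.048), SECTM1 (0.054) and INSIG1 (0.056). IRAK2, for example, stood at -0.26, -0.61, -0.39 and -0.54 in FOXL2WT, FOXL2C134W, FOXL2WT + FOXO1 and FOXL2C134W + FOXO1, next to -0.20, -0.58, -0.40 and -0.47 for NFKBIA. TNFAIP3 came at rank 163 and NFKBIZ at rank 2731.

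Some markers of cells other than granulosa cells were also lower than in Vectors. The summed level of the 10 leukocyte markers was 105 to 119 CPM in Vectors and 90.97 to 99.6 CPM over the other conditions, nearly all of it CD68, which is also a lysosomal gene of other cells and was called lower in all 4 conditions (-0.27 to -0.22). The summed level of the 5 endothelial markers was 19.2 to 22.5 CPM in Vectors and 13.1 to 18.0 in the others, with KDR called lower in FOXL2C134W (-0.50) and FOXL2C134W + FOXO1 (-0.38). Of the leukocyte markers, PTPRC was at most at 5 counts and MS4A1 at 0. CD14 was at 12 to 38 counts per library and CSF1R at 2 to 19. The share of counts from mitochondrial genes was 0.268% to 0.280% in Vectors, 0.277% to 0.309% in FOXL2WT, 0.314% to 0.369% in FOXL2C134W, 0.266% to 0.301% in FOXL2WT + FOXO1 and 0.264% to 0.294% in FOXL2C134W + FOXO1. This share overlapped that of Vectors in every other condition except FOXL2C134W, where it was higher. The part of these values in the differences of NFKBIA, NFKBIZ, TNFAIP3 and RELB was not tested.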

How the data were processed

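RNA of 15 HGrC1 libraries was analysed, 3 for each of the conditions Vectors, FOXL2WT, FOXL2C134W, FOXL2WT + FOXO1 and FOXL2C134W + FOXO1, assigned from the sample labels. The authors quantified transcripts with salmon 1.1.0 on hg38, imported them per gene with tximport and deposited a table of rounded estimated counts without normalization, with all columns mapped to a sample. They also deposited transcript tables with TPM values, transcript lengths and estimated counts per transcript. Each library held 14962245 to 25339094 estimated counts.

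Genes were kept with filterByExpr, scaled with TMM and compared by the quasi-likelihood test of edgeR 4.0.16 in R 4.3.3, with all 15 libraries in 1 fit and Benjamini-Hochberg adjustment over 13868 genes. The script was tested on simulated data. Log2 levels for the ranking by likeness to NFKBIA used a prior count of 2, and TPM was summed over transcripts per gene. Positions came from GENCODE 44 (GRCh38), joined by gene identifier without version, and promoters from RefSeq (GRCh38.p14).

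Named were the 10 genes, the transfected genes, from each pathway list up to 2 called genes with the highest and 2 with the lowest fold change in each of FOXL2WT against Vectors, FOXL2C134W against Vectors and FOXL2C134W against FOXL2WT, and the 5 genes most like NFKBIA. The 10 genes and the lists were chosen with earlier results of these data known. CHUK, IKBKB, IKBKG and the other list genes outside this rule were named after their values were seen. Alternatives were the Wald test of DESeq2 1.42.0, its size factors, its transcript length offsets, filters of 1 count in any and 10 counts in every library, only the libraries compared, a replicate block, and leaving out each library.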

Additional observations from a re-analysis of the deposited data

Results flagged for a closer look

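The effect of FOXO1 on NFKBIA differed between the FOXL2 forms. The interaction, the FOXO1 effect in FOXL2C134W minus that in FOXL2WT, was 0.30 ± 0.05 on the log2 scale (edgeR adjusted p = 0.0083), and the 3 libraries of FOXL2WT + FOXO1 lay below all of FOXL2WT while the 3 of FOXL2C134W + FOXO1 lay above all of FOXL2C134W. Its log2 value was 0.29 to 0.32 over the alternatives. The RNA of the transfected genes also gave an interaction in the same edgeR test. It was 0.60 ± 0.13 for FOXL2 (adjusted p = 0.033), 0.41 ± 0.07 for SMAD3 (adjusted p = 0.0065) and -1.41 ± 0.13 for FOXO1 (adjusted p = 4.7e-05). FOXO1 RNA thus rose less with FOXL2C134W than with FOXL2WT. The part of these amounts in the interaction of NFKBIA was not tested. Conditions had 3 libraries each, so no single library was tested as standing apart.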

How the results depend on the processing

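Of the 18 called values among 90 (10 genes in 9 comparisons), 15 kept direction and call under all 22 alternatives, and 3 lost the call in at least 1 (NFKB2 in FOXL2C134W + FOXO1 against Vectors, TNFAIP3 in FOXL2WT against Vectors and TNFAIP3 between the forms with FOXO1). None of the 18 turned in sign, while 27 of the 72 others did, none of these with a call, and 6 of the 72 were called under at least 1 alternative. The number of the 10 genes called for FOXL2C134W + FOXO1 against FOXL2WT + FOXO1, 1 as reported, was 2 without a filter on low counts, 0 with only the libraries compared, 0 with transcript length offsets and 0 to 1 without single libraries. For FOXL2WT + FOXO1 against FOXL2WT, 0 as reported, it was 1 with DESeq2, with no filter, with at least 10 counts in every library and with length offsets, each time NFKBIA. For FOXL2C134W + FOXO1 against FOXL2C134W, 0 as reported, it was 1 (REL) with no filter. The cause was not tested. DESeq2 gave no adjusted p for NFKBIB, NFKBIE, REL and RELB in FOXL2WT + FOXO1 against FOXL2WT.

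The total of called genes behind the percentages depended on the setting. From 842, 2041 and 1560 for FOXL2WT against Vectors, FOXL2C134W against Vectors and FOXL2C134W against FOXL2WT it went to 496, 971 and 764 with length offsets, and from 842 to 1690 with only the libraries compared. For FOXL2WT + FOXO1 against Vectors it went from 524 to 954 with no filter, and for FOXL2C134W + FOXO1 against Vectors from 1294 to 743 with length offsets. Without a filter, the comparison of the forms with FOXO1 went from 20 to 446, FOXO1 added to FOXL2WT from 7 to 260, FOXO1 added to FOXL2C134W from 99 to 463 and the interaction from 192 to 551. Leaving out single libraries also moved the totals. Without Vectors replicate A, FOXL2WT against Vectors fell to 305 and the conditions with FOXO1 against Vectors to 215 and 764. FOXL2C134W against Vectors fell to 1275 without FOXL2C134W replicate B, and FOXL2C134W against FOXL2WT to 772 without FOXL2WT replicate B. FOXO1 added to FOXL2C134W ranged from 5 (without FOXL2C134W replicate B or C or FOXL2C134W + FOXO1 replicate C) to 355 (without FOXL2C134W replicate A), and FOXO1 added to FOXL2WT from 2 (without FOXL2WT + FOXO1 replicate B) to 10. The interaction ranged from 45 and the forms with FOXO1 from 7 (both without FOXL2C134W + FOXO1 replicate A) to 423 and 38 (both without FOXL2C134W replicate A). Of 42 calls of named list genes, 20 held under every alternative and none turned in sign.

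With the replicate letter as a block, the counts among the 10 genes were 3, 3, 3, 3, 4, 1, 0, 0 and 1, as without it. Deviations of libraries that share a letter correlated between -0.164 and 0.166 (30 pairs, median 0.0036), so the letters were not taken to pair the libraries. With 3 libraries per condition, and intervals of REL about ±0.3 wide on the log2 scale, small changes of the least abundant genes were not detectable.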
